A study of Homo sapiens with 18 samples.

Results

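The genes described here are 10 regulatory B subunit genes of protein phosphatase 2A (PP2A), chosen by name, out of 58051 genes in the count table. Other B subunit genes, among them PPP2R2B, PPP2R2C and the striatin genes, enter no rank, share or sum of the 10. They are PPP2R3B, PPP2R3A and PPP2R3C of the B'' family, PPP2R2A and PPP2R2D of the B55 family, and PPP2R5A, PPP2R5B, PPP2R5C, PPP2R5D and PPP2R5E of the B56 family. RNA was sequenced from the human melanoma cell lines SKMEL2 and SKMEL30, both mutant in NRAS and both carrying PPP2R3B in an inducible lentiviral vector (pTRIPZ, tet-ON), so that doxycycline switches the added gene on. Each line was sampled uninduced, after 6 hours and after 18 hours of induction, with 3 libraries in each of the 6 groups and 18 libraries in all. The uninduced cells carry the same vector and were not given doxycycline, and no library was made from cells given doxycycline without the vector, so an effect of doxycycline and an effect of PPP2R3B cannot be told apart. The added gene is the open reading frame of PPP2R3B with an N-terminal Myc tag, and the counts do not separate it from the gene of the cells. The design asks what changes in the transcriptome when PPP2R3B is raised, and at which time. The labels do not say whether the 3 libraries of a group came from separate cultures, so p-values measure the spread between libraries, which may be technical.

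PP2A is a serine/threonine phosphatase built from a scaffold subunit (PPP2R1A or PPP2R1B), a catalytic subunit (PPP2CA or PPP2CB) and a single regulatory B subunit. The B subunit decides which substrates the enzyme meets and where in the cell it acts, and the B families share little sequence while they compete for the same core. PP2A opposes many kinases, among them kinases downstream of RAS, and B subunits of the B56 family in particular are known for restraining growth signaling.

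Totals per library ran from 13402645 to 22383470 counts, with a median of 17958636. The cells expressed the melanocytic genes MITF, SOX10, PMEL, MLANA and TYR in every library, with the lowest value of any at 223 CPM (counts scaled to the normalized library total), whereas the blood, epithelial and fibroblast markers PTPRC, CD3E, EPCAM, COL1A1 and DCN did not exceed 1.46 CPM. All 10 B subunit genes passed the filter on low counts in both lines. The lowest count of a B subunit gene in any library was 61, for PPP2R5B, and the highest was 12106, for PPP2R3B.

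RefSeq (GRCh38.p14) gave a promoter window, from 250 bases before to 50 bases after the start, for 9 of the 10. PPP2R3B lies at chrX:333933-386907 in the pseudoautosomal region, on the reverse strand, and its window, chrX:386858-387157, is shown because the vector does not carry it: the induced transcript comes from a doxycycline-responsive promoter instead. PPP2R5D (window chr6:42984320-42984619) and PPP2R2D (chr10:131900758-131901057) are shown because, of the 10, their transcripts differed most between the lines. PPP2R3A (chr3:135965478-135965777) is shown because it had the largest difference of the 10 in the opposite direction. These 3 windows are on the forward strand. Capitals mark each GC box (GGGCGG or its reverse complement CCGCCC) and each CCAAT box (CCAAT or its reverse complement ATTGG).
PPP2R3B: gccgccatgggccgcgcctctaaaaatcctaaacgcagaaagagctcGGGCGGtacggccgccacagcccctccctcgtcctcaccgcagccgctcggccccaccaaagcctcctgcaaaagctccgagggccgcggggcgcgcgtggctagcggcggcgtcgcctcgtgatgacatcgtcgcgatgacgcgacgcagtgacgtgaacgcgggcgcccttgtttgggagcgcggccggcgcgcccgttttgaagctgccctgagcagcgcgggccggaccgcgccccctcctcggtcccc
PPP2R3A: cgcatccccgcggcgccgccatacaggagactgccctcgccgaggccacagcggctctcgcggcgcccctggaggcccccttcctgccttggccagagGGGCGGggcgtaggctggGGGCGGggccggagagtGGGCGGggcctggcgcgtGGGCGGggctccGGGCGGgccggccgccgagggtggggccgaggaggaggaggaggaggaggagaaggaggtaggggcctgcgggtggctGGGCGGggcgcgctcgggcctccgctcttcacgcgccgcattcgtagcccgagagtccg
PPP2R2D: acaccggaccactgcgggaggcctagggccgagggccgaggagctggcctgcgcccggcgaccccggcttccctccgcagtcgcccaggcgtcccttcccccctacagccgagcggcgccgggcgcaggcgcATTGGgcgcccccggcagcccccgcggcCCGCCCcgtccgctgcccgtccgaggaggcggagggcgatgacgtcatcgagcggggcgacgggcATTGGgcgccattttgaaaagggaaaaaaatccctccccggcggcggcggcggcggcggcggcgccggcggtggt
PPP2R5D: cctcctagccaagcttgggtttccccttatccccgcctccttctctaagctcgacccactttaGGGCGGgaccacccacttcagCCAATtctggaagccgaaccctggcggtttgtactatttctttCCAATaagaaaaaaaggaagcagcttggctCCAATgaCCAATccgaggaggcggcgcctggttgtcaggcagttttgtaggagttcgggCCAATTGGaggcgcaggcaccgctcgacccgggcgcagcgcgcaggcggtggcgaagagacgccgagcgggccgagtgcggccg
The PPP2R3B window held 45 CpG dinucleotides and 1 GC box, and the PPP2R2D window 45 CpG, 1 GC box and 2 CCAAT boxes. The PPP2R3A window held 37 CpG and 6 GC boxes, and the PPP2R5D window 24 CpG, 1 GC box and 6 CCAAT boxes, of which a pair overlaps head to head. Over all 34796 promoter windows the median was 14 CpG, 44.9% held a GC box and 34.6% held a CCAAT box. E-box letters that MITF can bind were also searched, on both strands. CACGTG occurs in 7.20% of all windows and CATGTG in 11.1%, and none of the 4 windows shown has either. The table gives PPP2R3A a second start (chr3:136022492-136022791), whose window is not shown and holds 1 CATGTG, 2 CpG and no GC box. Of the windows not shown, a PPP2R3C window also holds CACGTG and a PPP2R5C window CATGTG.

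Induction raised PPP2R3B 20.8-fold in SKMEL2 and 25.8-fold in SKMEL30 within 6 hours, and PPP2R3B had the smallest p of all genes tested in each of the 4 comparisons with uninduced cells. PPP2R3B encodes the B'' subunit PR70, a calcium-binding subunit known to bring PP2A to the replication protein CDC6. In SKMEL2 the 3 uninduced libraries held 24.4, 20.5 and 17.2 CPM. At 6 hours these were 343, 418 and 515 CPM, and at 18 hours 426, 512 and 484 CPM. The lowest induced library was thus far above the highest uninduced library, whereas the ranges at 6 and 18 hours overlapped. The log2 fold change was 4.38 at 6 hours (95% interval 4.01 to 4.74, edgeR quasi-likelihood test with Benjamini-Hochberg adjustment, adjusted p = 9.04e-08) and 4.52 at 18 hours (4.16 to 4.89, adjusted p = 6.39e-08). The latter is 23.0-fold.

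In SKMEL30 the uninduced libraries held 22.4, 19.8 and 20.6 CPM of PPP2R3B. The 6-hour libraries held 521, 535 and 566 CPM and the 18-hour libraries 617, 617 and 614 CPM. Here the groups at 6 and 18 hours did not overlap either, and the 3 libraries at 18 hours lay within 4 CPM of each other. The edgeR log2 fold change was 4.69 at 6 hours (4.59 to 4.79, adjusted p = 3.77e-17) and 4.88 at 18 hours (4.78 to 4.97, adjusted p = 2.21e-17), the latter 29.4-fold. Between 6 and 18 hours PPP2R3B was 0.19 higher on the log2 scale (0.12 to 0.26), which missed the threshold over all genes tested (adjusted p = 0.141) and passed it in DESeq2 and with no filter on low counts. In SKMEL2 the same difference was 0.15 (-0.15 to 0.45, adjusted p = 1.00). Its size varied with the library left out, at 0.01 without 6-hour replicate 1, 0.32 without 6-hour replicate 3 and 0.09 without 18-hour replicate 2.

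The response of PPP2R3B in SKMEL2 minus that in SKMEL30 was -0.32 on the log2 scale at 6 hours (-0.69 to 0.06) and -0.35 at 18 hours (-0.73 to 0.03), and the test of this difference called neither (edgeR interaction, adjusted p = 0.902 and 0.895). With 1 library left out the values ran from -0.48 (without 6-hour SKMEL2 replicate 3) to -0.19 (without 6-hour SKMEL2 replicate 1, or uninduced SKMEL2 replicate 1) at 6 hours. At 18 hours they ran from -0.47 to -0.22, without uninduced SKMEL2 replicates 3 and 1. The 18-hour value was called only where no filter on low counts was used (adjusted p = 0.0247). Without induction the lines did not differ detectably in PPP2R3B, with 20.7 ± 3.60 CPM in SKMEL2 and 20.9 ± 1.35 CPM in SKMEL30 (SD, n = 3). The log2 difference was -0.03, with an interval from -0.33 to 0.27 (adjusted p = 0.859).

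**Figure D1:**
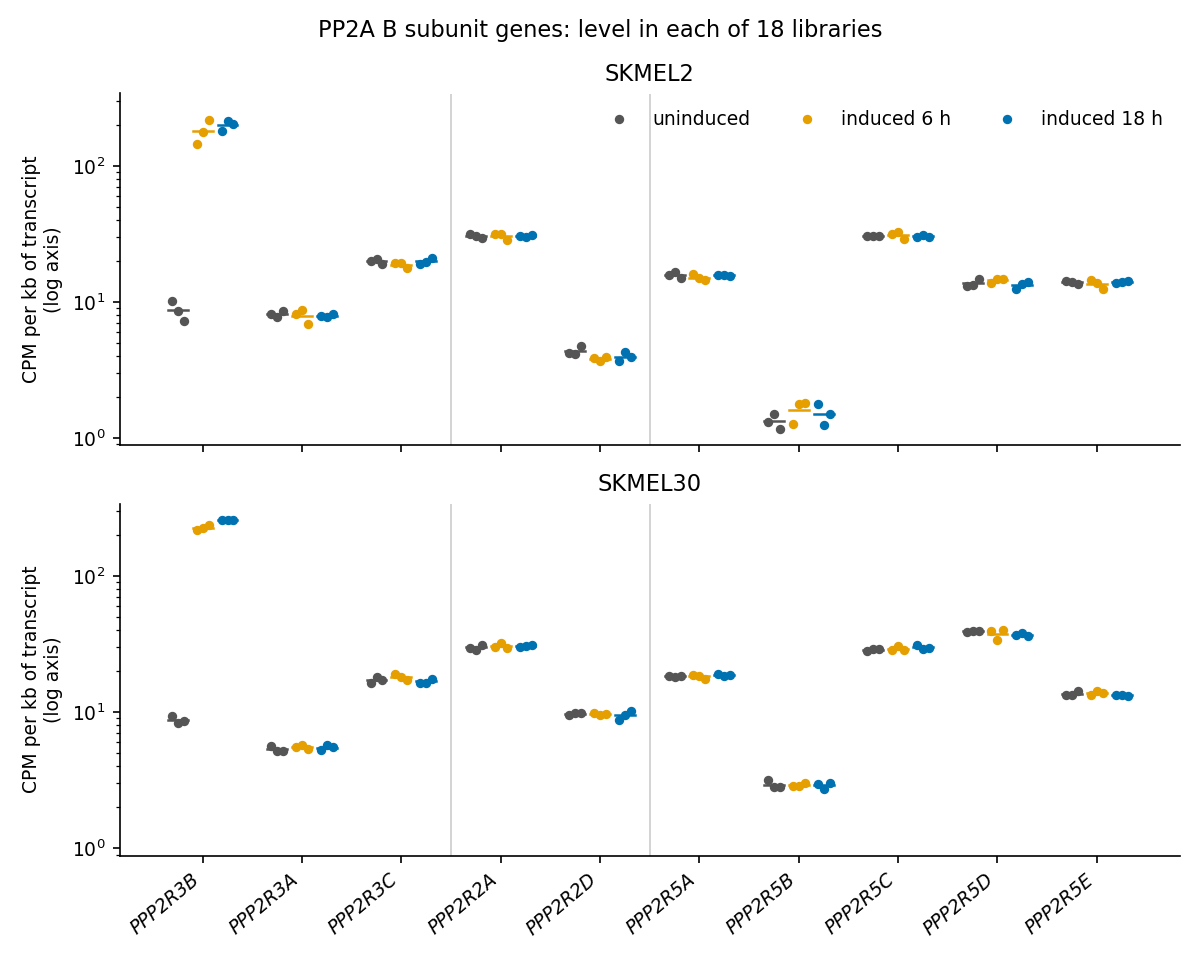
Level of the 10 B subunit genes in each library, as CPM per kilobase of transcript on a log axis, with SKMEL2 above and SKMEL30 below. Points are libraries, short lines are means of 3, and vertical lines separate the B'', B55 and B56 families. PPP2R3B goes from below 11 to above 144 on induction, while PPP2R5D and PPP2R2D stand higher in SKMEL30.

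None of the 9 other B subunit genes was called in any of the 4 comparisons of induced with uninduced cells. The share of all tested genes called was itself small: 0.0124% in SKMEL2 at 6 hours, 0.0124% at 18 hours, 0.206% in SKMEL30 at 6 hours and 0.293% at 18 hours, so that 0 of 9 says little by itself. In edgeR 0 of the 9 had an unadjusted p under 0.05, where 3.37%, 4.65%, 6.44% and 9.14% of all tested genes had, and DESeq2 called 0 of the 9 in each comparison, although in SKMEL30 at 18 hours it gave no adjusted p for 5 of them. The intervals of the fold changes are therefore more informative than the calls. In SKMEL30 they were narrow: all 9 lay between -0.21 and 0.19 on the log2 scale at both times. In SKMEL2, where libraries of a group varied more, 8 of the 9 stayed between -0.37 and 0.24 at both times, and PPP2R5B reached 0.72. The median log2 fold change of the 9 was -0.04 and -0.01 in SKMEL2 at 6 and 18 hours and 0.02 and -0.01 in SKMEL30, beside 0.00 over all genes tested in each comparison.

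Among the other B'' genes, PPP2R3A encodes the subunits PR130 and PR72, which arise from different starts of transcription. In SKMEL2 it held 54.5, 52.4 and 58.2 CPM uninduced, 54.8, 58.6 and 46.2 CPM at 6 hours and 53.1, 52.6 and 54.8 CPM at 18 hours. In SKMEL30 it held 38.0, 35.1 and 35.1 CPM uninduced, 37.3, 38.9 and 36.2 CPM at 6 hours and 35.3, 38.7 and 37.2 CPM at 18 hours. The groups overlapped in both lines, and its log2 fold changes were -0.05 and -0.04 in SKMEL2 and 0.05 and 0.03 in SKMEL30. PPP2R3C, the B'' subunit G5PR, ranged from 26.9 to 31.7 CPM over the 9 libraries of SKMEL2. Over those of SKMEL30 it ranged from 24.8 to 28.8 CPM. Its log2 fold changes were -0.07 and 0.00 in SKMEL2 and 0.06 and -0.04 in SKMEL30. Its induced and uninduced groups overlapped too, so neither relative of the induced gene separated from its uninduced libraries.

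The B55 subunits dephosphorylate substrates of cyclin-dependent kinases at the end of mitosis. PPP2R2A, the most abundant of them, lay between 113 and 125 CPM in every library of SKMEL2 and between 113 and 126 CPM in every library of SKMEL30. Its log2 fold changes were 0.01 and 0.00 in SKMEL2 and 0.03 and 0.04 in SKMEL30, with all 4 intervals inside -0.12 to 0.14. PPP2R2D is also a B55 subunit gene. In SKMEL2 it held 21.5, 21.2 and 24.2 CPM uninduced, 19.8, 19.0 and 20.1 CPM at 6 hours and 18.9, 22.0 and 20.2 CPM at 18 hours. All 3 libraries at 6 hours lay below the uninduced ones, and at 18 hours 2 of 3 did. The edgeR log2 fold change at 6 hours was -0.18 (-0.37 to 0.01, adjusted p = 0.989) and at 18 hours -0.14 (-0.32 to 0.05, adjusted p = 0.987), neither called. Without uninduced replicate 3 these were -0.12 and -0.08, and without 18-hour replicate 1 the second was -0.09. It was the only other B subunit gene whose groups did not overlap at 6 hours in SKMEL2, as was so for 6.80% of all genes tested. At 18 hours in SKMEL2 and at 6 hours in SKMEL30 the groups of all 9 overlapped, beside 14.3% and 11.3% of all genes without overlap. In SKMEL30 PPP2R2D held 49.4, 50.5 and 50.7 CPM uninduced, 50.7, 49.2 and 49.5 CPM at 6 hours and 45.3, 48.7 and 52.2 CPM at 18 hours, with log2 fold changes of -0.01 and -0.04.

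The B56 subunits oppose growth and survival signaling and guard the attachment of chromosomes to the spindle. PPP2R5A lay between 47.2 and 54.1 CPM in SKMEL2 and between 57.3 and 62.5 CPM in SKMEL30. PPP2R5E had a median of 93.1 CPM over the 9 libraries of SKMEL2 and of 89.6 CPM over those of SKMEL30, with coefficients of variation of 4.48% and 2.94%. Its log2 fold changes were -0.04 and 0.01 in SKMEL2 and 0.02 and -0.03 in SKMEL30. PPP2R5C lay between 135 and 151 CPM in SKMEL2 and between 131 and 145 CPM in SKMEL30. Its 3 uninduced libraries in SKMEL2 lay within 0.3 CPM of each other, at 141 CPM each, so that 3 induced libraries were above and 3 below them. PPP2R5B was the rarest, with 3.55, 4.13 and 3.17 CPM uninduced in SKMEL2, 3.44, 4.82 and 4.95 CPM at 6 hours and 4.88, 3.39 and 4.08 CPM at 18 hours. Its log2 fold changes in SKMEL2 were 0.29 and 0.19, with the widest intervals of the 9, -0.15 to 0.72 and -0.24 to 0.62. Their size varied with single libraries. Without 6-hour replicate 3 the first was 0.19 and without 6-hour replicate 1 it was 0.45, and without 18-hour replicate 1 the second was 0.05. In SKMEL30 the same gene gave -0.01 at both times, with intervals from -0.21 to 0.19.

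PPP2R5D, whose protein is the B56 subunit altered in a developmental disorder of the brain, held 116, 117 and 117 CPM in uninduced SKMEL30, 118, 100 and 120 CPM at 6 hours and 110, 113 and 108 CPM at 18 hours. The 18-hour libraries lay below the uninduced ones, with a log2 fold change of -0.08 (-0.20 to 0.04, edgeR, adjusted p = 0.708). PPP2R5A and PPP2R5C lay above theirs at that time, by 0.04 and 0.06. These 3 of the 9 genes were the ones without overlap at 18 hours in SKMEL30, where 16.0% of all tested genes had none, and no interval of the 3 left out 0. In SKMEL2 PPP2R5D held 38.7, 39.4 and 43.7 CPM uninduced, 40.7, 44.0 and 43.8 CPM at 6 hours and 36.7, 40.6 and 41.4 CPM at 18 hours, with log2 fold changes of 0.08 and -0.04. Its 18-hour groups overlapped there.

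**Figure D2:**
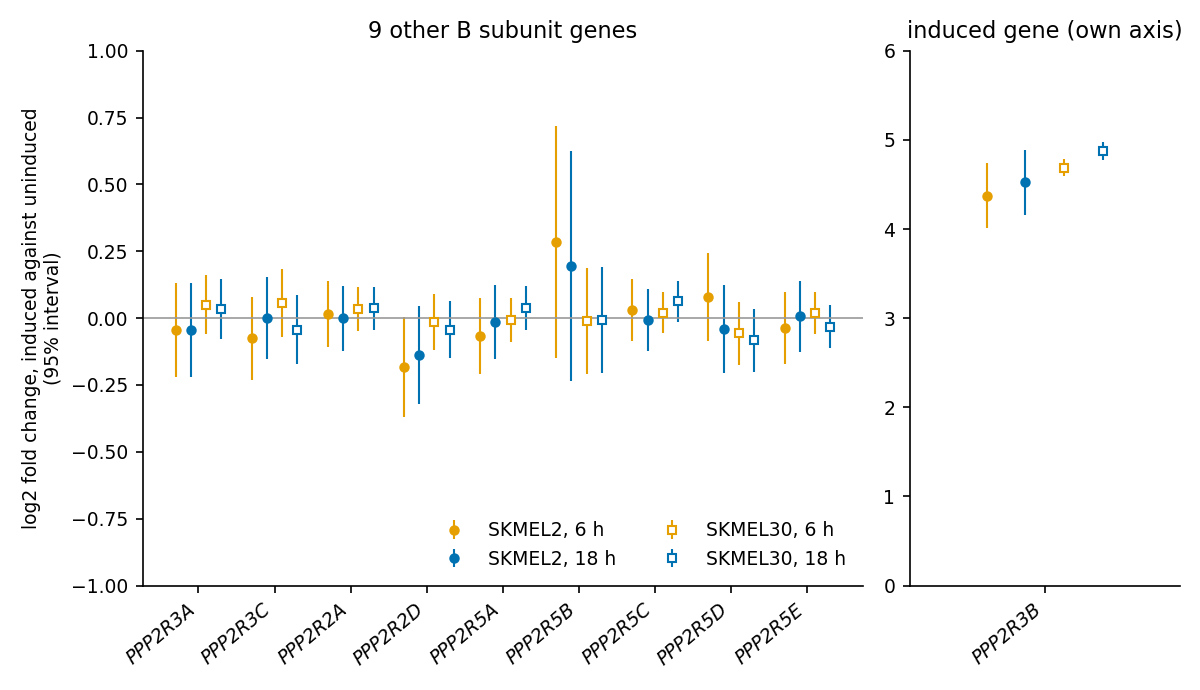
Log2 fold change of induced against uninduced cells for the 9 other B subunit genes (left) and for PPP2R3B on an axis of its own (right). Points are edgeR estimates from 3 against 3 libraries and bars are 95% intervals, filled for SKMEL2 and open for SKMEL30. Every interval of the 9 genes includes 0, and those of PPP2R5B in SKMEL2 are the widest, whereas PPP2R3B lies between 4.38 and 4.88.

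Between 6 and 18 hours none of the 9 was called in either line, where 0 of 16120 genes were called in SKMEL2 and 0.0200% in SKMEL30. With an unadjusted p under 0.05 there were also 0 of the 9, beside 2.59% and 5.56% of all genes. DESeq2 likewise called none of the 9 there. The edgeR interaction, which compares the responses of the lines, was called for 0 of the 9 at 6 hours, where 0 of 17133 genes were called. At 18 hours it was called for 0 of the 9 and for 0.00584% of all genes. With an unadjusted p under 0.05 there were 0 of the 9 at both times, beside 4.91% and 5.16% of all genes, and DESeq2 called 0 of the 9. The largest of these differences was that of PPP2R5B at 6 hours, 0.29 with an interval from -0.14 to 0.73.

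Levels of different genes were compared per kilobase of transcript, using the MANE Select transcript (for PPP2R2D, the transcript with the longest coding sequence). On that scale no single B subunit gene prevailed in uninduced SKMEL2. PPP2R5C and PPP2R2A both stood at 30.5 CPM per kilobase and their ranges overlapped. PPP2R3C followed at 19.9, PPP2R5A at 15.9, and PPP2R5E and PPP2R5D at 13.9 and 13.7, which overlapped. PPP2R3B (8.69) and PPP2R3A (8.16) overlapped as well, and PPP2R2D (4.35) and PPP2R5B (1.33) were last.

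In uninduced SKMEL30 PPP2R5D was first, at 39.3 ± 0.21 CPM per kilobase (SD, n = 3), above PPP2R2A at 29.9 and PPP2R5C at 28.9, which overlapped. PPP2R5A (18.4) and PPP2R3C (17.4) overlapped next. Then came PPP2R5E at 13.7, PPP2R2D at 9.78, PPP2R3B at 8.81, PPP2R3A at 5.35 and PPP2R5B at 2.94. On that scale uninduced PPP2R3B had rank 7 of 10 in SKMEL2 and rank 8 of 10 in SKMEL30. The striatin genes STRN4, STRN3 and STRN, which are not among the 10, stood at 23.7, 16.3 and 5.21 in uninduced SKMEL2. In uninduced SKMEL30 they stood at 19.4, 9.64 and 7.40. Ranks and shares therefore hold among the 10 only.

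Which gene came first among the 9 depended on the length by which counts were divided. With the coding length PPP2R2A was first in both lines, with the median length of coding transcripts PPP2R5C was, and with the union of all exons PPP2R2A was first in SKMEL2 and PPP2R5D in SKMEL30. PPP2R5B was last of the 9 under every length. The rank of uninduced PPP2R3B among the 10 was 9 in SKMEL2 and 10 in SKMEL30 with the union of exons, 9 and 8 with the coding length, and 8 and 9 with the median length, so which line ranked it lower changed too. Which transcripts the cells made was not measured.

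After induction PPP2R3B was first in all 4 induced groups under every length. Per kilobase of the MANE Select transcript it stood at 179 and 199 CPM in SKMEL2 and at 227 and 259 CPM in SKMEL30, at 6 and 18 hours. The next gene was at 31.1 and 30.5 in SKMEL2 (PPP2R5C, then PPP2R2A) and at 37.9 and 37.1 in SKMEL30 (PPP2R5D). PPP2R3B took 5.91% ± 0.93 of the summed level of the 10 genes in uninduced SKMEL2, 56.2% ± 5.92 at 6 hours and 59.1% ± 1.96 at 18 hours (SD, n = 3). In SKMEL30 its share was 5.05% ± 0.34 uninduced, 57.7% ± 1.22 at 6 hours and 61.1% ± 0.16 at 18 hours. With each of the 10 genes divided by its own coding length, the shares were 3.28% uninduced, 41.2% at 6 hours and 43.9% at 18 hours in SKMEL2. In SKMEL30 they were 2.88%, 43.2% and 46.5%. The vector carries only the coding part of PPP2R3B, and a setting that shortened PPP2R3B alone was not run. Since the share is of a sum, the other shares fell as PPP2R3B rose, which is not a fall in level.

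**Figure D3:**
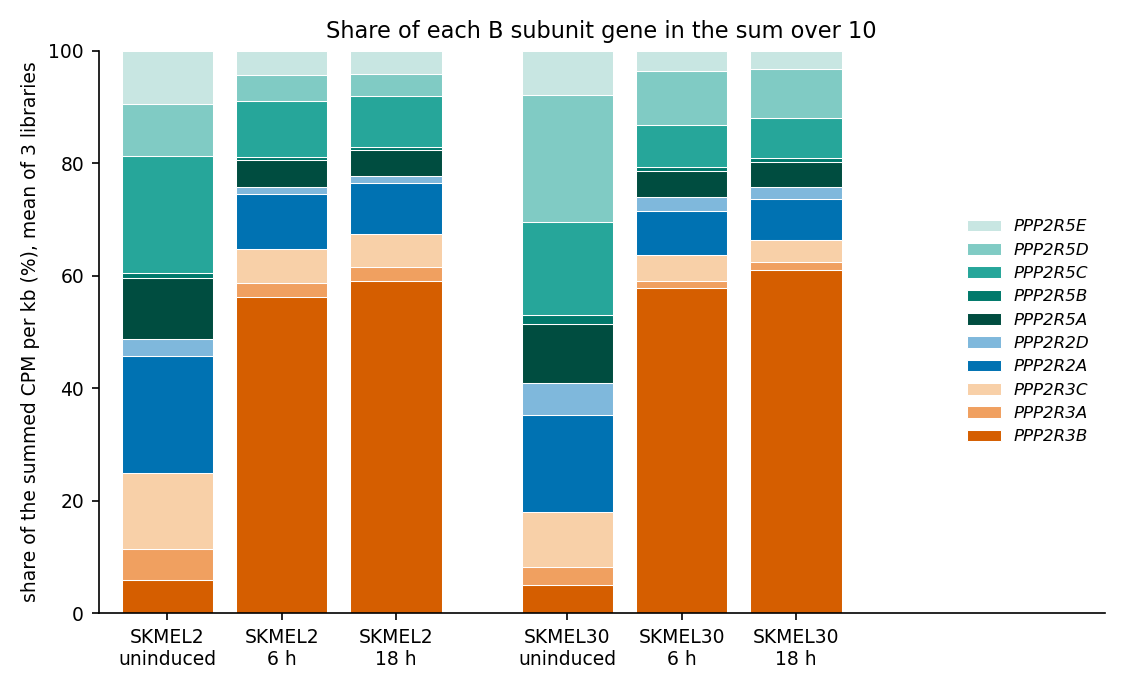
Share of each B subunit gene in the summed CPM per kilobase of the 10 genes, as means of 3 libraries for each group. B'' genes are orange, B55 genes blue and B56 genes green. PPP2R3B takes 5.91% and 5.05% in uninduced SKMEL2 and SKMEL30 and between 56.2% and 61.1% in the 4 induced groups.

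The sum of the 9 other genes was 138 CPM per kilobase in uninduced SKMEL2, 137 at 6 hours and 137 at 18 hours, and 166, 166 and 165 in SKMEL30. Against the catalytic subunit genes, PPP2CA and PPP2CB summed, the 9 together gave a ratio of 1.35, 1.34 and 1.34 in SKMEL2 and of 1.34, 1.35 and 1.34 in SKMEL30. PPP2R3B alone went from 0.0851 ± 0.0148 to 1.76 ± 0.38 at 6 hours and 1.95 ± 0.11 at 18 hours in SKMEL2, and from 0.0714 ± 0.0055 to 1.85 ± 0.09 and 2.11 ± 0.02 in SKMEL30 (SD, n = 3). With coding lengths the ratios of PPP2R3B were lower, at 0.0301 and 0.0273 uninduced and at 0.625, 0.693, 0.708 and 0.808 in the induced groups, and those of the 9 together lay between 0.882 and 0.931. Among the settings run, whether induced PPP2R3B exceeded the catalytic transcripts therefore depended on the length used. The coding length shortened PPP2CA from 4582 to 927 bases and PPP2CB from 1946 to 927, but PPP2R3B only from 2378 to 1725. It thus raised the catalytic level more than that of PPP2R3B, although only the vector's PPP2R3B is known to lack the noncoding part. A shorter length for induced PPP2R3B alone would raise its ratio above that of the MANE Select lengths, but was not run. Against the summed scaffold genes, PPP2R1A and PPP2R1B, PPP2R3B went from 0.284 to 5.46 and 6.22 in SKMEL2 and from 0.221 to 5.80 and 6.88 in SKMEL30. With coding lengths these were 0.129, 2.47 and 2.82 in SKMEL2 and 0.1003, 2.64 and 3.12 in SKMEL30. These are ratios of transcripts, and protein was not measured in these libraries.

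**Figure D4:**
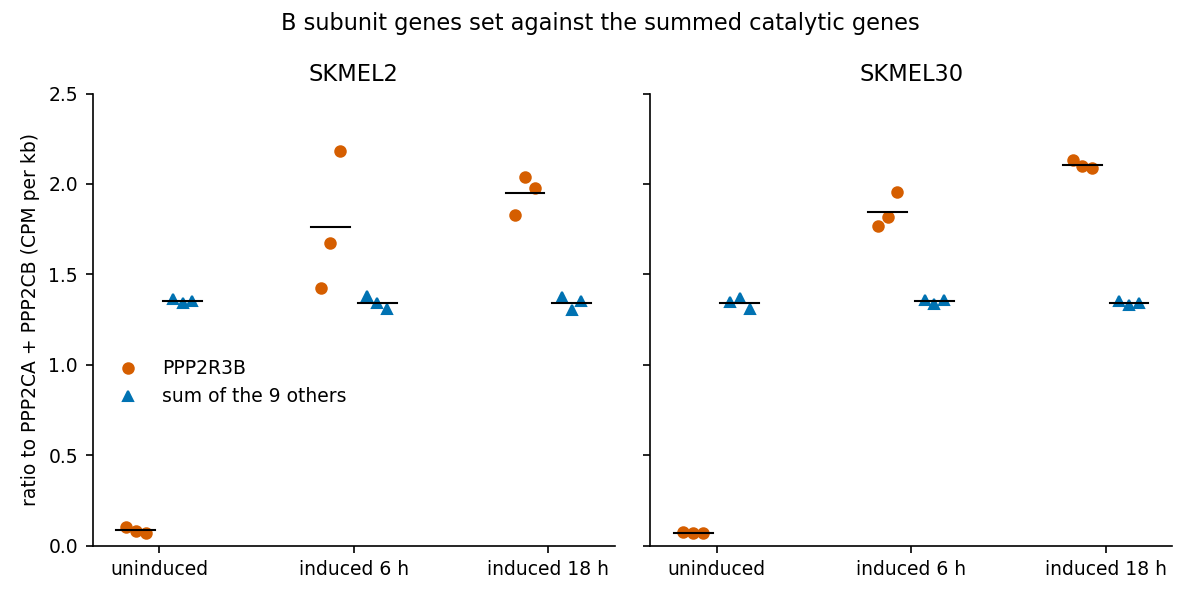
Ratio of the level of PPP2R3B (circles) and of the sum of the 9 other B subunit genes (triangles) to the summed level of PPP2CA and PPP2CB, in CPM per kilobase. Points are libraries and black lines are means of 3. With the MANE Select lengths used here the 9 others stay near 1.34 in all 6 groups, while PPP2R3B goes from below 0.11 to between 1.43 and 2.18.

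The lines themselves differed in their B subunit genes before induction. Of the 9 other genes, 4 were lower and 2 higher in SKMEL2 than in SKMEL30, and 3 were not called. Of all genes tested 75.9% were called, 40.1% higher and 35.8% lower in SKMEL2, so that 6 of 9 is not above what genes in general showed. In the same way 7 of the 9 had ranges that did not overlap, beside 78.3% of all genes. PPP2R5D differed most, at 40.6 CPM on average in uninduced SKMEL2 and 117 CPM in SKMEL30, a log2 difference of -1.52 (SE 0.07, edgeR, adjusted p = 6.24e-14). Also lower in SKMEL2 were PPP2R2D (-1.17, SE 0.07, adjusted p = 4.13e-12), PPP2R5B (-1.15, SE 0.15, adjusted p = 6.51e-07) and PPP2R5A (-0.21, SE 0.05, adjusted p = 6.48e-04). Higher in SKMEL2 were PPP2R3A, by 0.61 (SE 0.07, adjusted p = 2.22e-07), and PPP2R3C, by 0.19 (SE 0.06, adjusted p = 0.0112). The call of PPP2R3C was lost with no filter on low counts (adjusted p = 0.0553). It was also lost without uninduced SKMEL2 replicate 2 (adjusted p = 0.0729) or without uninduced SKMEL30 replicate 1 (adjusted p = 0.0719).

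PPP2R2A, PPP2R5C and PPP2R5E, 3 abundant subunit genes, were close to equal in the lines. Their log2 differences were 0.03 (-0.08 to 0.13), 0.08 (-0.02 to 0.18) and 0.02 (-0.08 to 0.13). Of these 3, PPP2R5C had ranges that did not overlap, with 141 CPM in each uninduced SKMEL2 library and 131 to 135 CPM in SKMEL30. PPP2R5C was called only where at least 10 counts were asked of every library, at 0.13 (edgeR, adjusted p = 0.0106). The B56 family as a whole took 51.3% of the summed level of the 10 in uninduced SKMEL2 and 59.2% in SKMEL30. With other lengths these were 56.6% and 65.7% (union of exons), 57.0% and 59.9% (coding length) and 58.5% and 61.9% (median length).

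PPP2R5D shares 1194 bases with MEA1 on the opposite strand, and its counts were fractional before rounding in all 18 libraries. Fractional counts do not by themselves mark such sharing. Those of PPP2R5C and PPP2R5E were fractional in 15 and 13 libraries, and no counted gene was found to share bases with either. The sources used here do not state whether counting used strand. MEA1 was also lower in SKMEL2, with a log2 difference of -0.77 (edgeR, adjusted p = 4.16e-08), and its part in the difference of PPP2R5D was not tested. PPP2R3C shares 350 bases with PRORP and 168 with FAM177A1, likewise on the opposite strand. Neither of these was called between the lines, at -0.05 and 0.15.

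**Figure D5:**
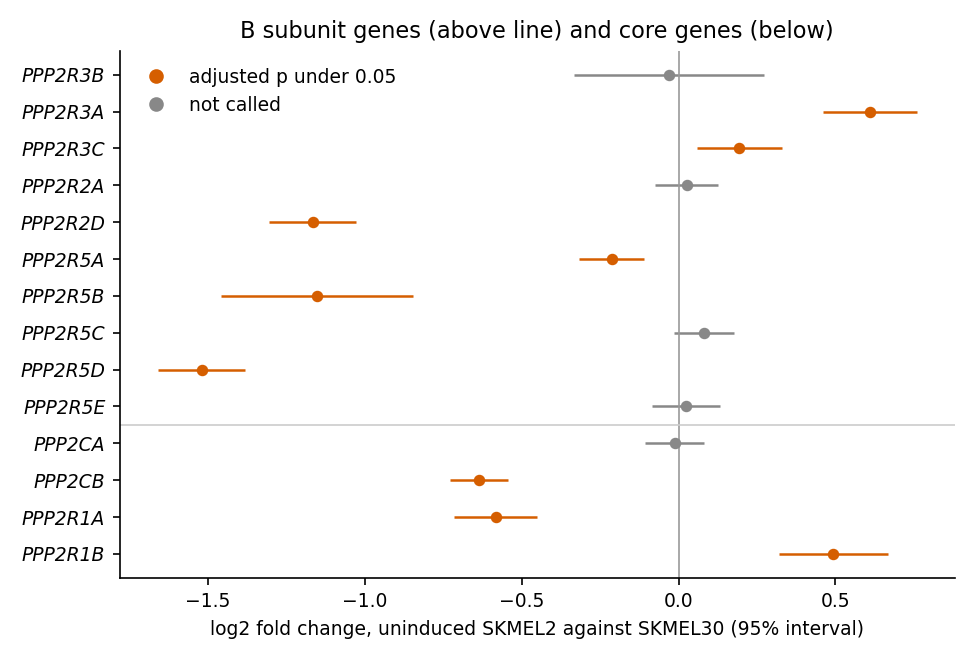
Log2 fold change of uninduced SKMEL2 against uninduced SKMEL30 for the 10 B subunit genes (above the line) and 4 core genes of PP2A (below), with 95% intervals from edgeR. Orange points passed the threshold and gray points did not. PPP2R5D, PPP2R2D and PPP2R5B lie between -1.52 and -1.15, and PPP2R3A lies at 0.61.

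A wider list of 24 PP2A genes was read in the same way. It held the core subunits, the other regulatory subunits, the assembly and methylation factors, the inhibitors with their kinase, and reported substrates of B'' subunits. Of these, 23 were tested in SKMEL2 and 22 in SKMEL30, and 0 were called in any of the 4 comparisons with uninduced cells, by edgeR or by DESeq2 (which gave an adjusted p for 15 of them in SKMEL30 at 18 hours). Unadjusted p-values under 0.05 were held by 0 and 2 of the list in SKMEL2 at 6 and 18 hours, and by 1 and 2 in SKMEL30, beside 3.37%, 4.65%, 6.44% and 9.14% of all genes tested. The medians over the list were -0.01 and -0.02 in SKMEL2 and 0.00 and -0.02 in SKMEL30.

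Of the core, the catalytic genes PPP2CA and PPP2CB had log2 fold changes between -0.02 and 0.03 in all 4 comparisons. The main scaffold gene PPP2R1A was 0.14 and 0.09 in SKMEL2 and -0.04 and -0.08 in SKMEL30, not called in any, with an interval from -0.15 to -0.02 at 18 hours in SKMEL30 (edgeR, adjusted p = 0.425). The second scaffold gene PPP2R1B lay between -0.09 and 0.03. The gene of the list with the largest change in SKMEL2 at 18 hours was PPP2R2B, a B55 subunit gene best known from neurons, at 0.25 (-0.07 to 0.57). At 6 hours it was PPP2R1A in SKMEL2. In SKMEL30 it was STRN4, a striatin that serves as a B subunit, at -0.16 and -0.12 at 6 and 18 hours. Its interval at 6 hours, -0.26 to -0.05, left out 0, though it was not called (edgeR, adjusted p = 0.490).

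Between the uninduced lines 4 genes of the list were higher and 13 lower in SKMEL2 out of 23 tested. As 75.9% of all genes were called there, 17 of 23 is close to what genes in general showed. The largest difference was that of PPP2R2B, at 4.43 CPM in SKMEL2 and 0.259 CPM in SKMEL30, a log2 difference of 4.10 (edgeR, adjusted p = 2.12e-10). Even in SKMEL2 it stood at 0.409 CPM per kilobase of its MANE Select transcript, under the 1.33 of PPP2R5B. That transcript is 10828 bases long, and this order rests on the length. Before division by length PPP2R2B was above PPP2R5B in uninduced SKMEL2, at 4.43 against 3.62 CPM. PPME1, which removes the methyl group from the catalytic subunit, was lower in SKMEL2 (-1.46). PPP2CB and PPP2R1A were lower (-0.64 and -0.58) and PPP2R1B was higher (0.49), while PPP2CA did not pass (-0.01, interval -0.11 to 0.08). The striatin genes STRN3 and STRN4 were higher (0.75 and 0.29), and STRN was lower (-0.51). Also lower were the inhibitor genes ENSA (-0.94), ANP32A (-0.78), ARPP19 (-0.30), SET (-0.23) and CIP2A (-0.21), the assembly gene TIPRL (-0.56), and the substrate genes RB1 (-0.95), CDC6 (-0.79) and RBL1 (-0.43).

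No gene came close to PPP2R3B in the size of its changes. Likeness was measured as the root mean square distance between the 4 log2 fold changes of a gene and those of PPP2R3B, over 14078 genes tested in both lines. This distance scores size, so a gene with a smaller rise in all 4 comparisons is also far away. Whether a gene rose along with PPP2R3B cannot be read from it. The nearest were DNAAF4-CCPG1, FERP1 and ENSG00000275185, at distances of 3.12, 3.19 and 3.31 on the log2 scale. All 3 were rare. Their counts over the 18 libraries ran from 0 to 85, from 0 to 35 and from 0 to 37, and each was at 0 in at least 1 uninduced library of SKMEL30.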

How the data were processed

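RNA of 18 samples of SKMEL2 and SKMEL30 was sequenced, and samples were grouped by cell line and induction time from the labels. The later time is called 18 hours after the labels, whereas the text of the study names a slightly different later time, so the time behind every 18-hour value is uncertain by that much. The authors trimmed the reads, aligned them to the GRCh38 transcriptome with STAR and estimated abundance per gene with RSEM, and the deposited values are expected counts (estimated counts) with no scaling for library size. The submitters' processing notes name RSEM 1.3.0, SAMtools 1.8, STAR 2.2.2a, Trimmomatic 0.36 and cutadapt 1.5, whereas the methods of the study name other versions of cutadapt and STAR. RSEM divides reads that fit several genes or transcripts between them, so counts of overlapping or similar genes carry more error than their size implies. All 18 sample columns were used.

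Counts were rounded to whole numbers, since 12.3% were not whole. Of 58051 gene IDs, 55604 matched a symbol. Each line was fitted on its 9 libraries with edgeR 4.0.16 (R 4.3.3): filterByExpr, TMM, quasi-likelihood test, Benjamini-Hochberg adjustment over all genes tested, called at an adjusted p under 0.05. Line differences and interactions were fitted on all 18 libraries. Standard errors and 95% intervals came from the F statistics. Variation between libraries of a group beyond counting noise (edgeR) had a coefficient of 8.36% in SKMEL2, against 4.11% in SKMEL30. Whether it is biological or technical is not known from the labels. No pair of replicates differed by as little as sampling noise (chi-square per degree of freedom 2.08 to 20.4). CPM used TMM factors over 18 libraries, except for the marker genes, which used plain library totals. Levels between genes were divided by the length of the main transcript. This length was read by gene ID from a GENCODE annotation lifted to GRCh37, used for lengths and shared bases only. Gene positions and promoters came from RefSeq (GRCh38.p14). Scripts were tested on simulated data.

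Alternatives were DESeq2 1.42.0, RLE factors, other filters on low counts, other sets of libraries, a replicate block, leaving out each library, and other transcript lengths. Named were the 10 B subunit genes, the 4 core genes and, from the list of 24, those called and the largest change of each comparison. The 3 genes nearest to PPP2R3B by root mean square distance were named too. The members and lists were chosen with earlier results of these data known.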

Additional observations from a re-analysis of the deposited data

How the results depend on the processing

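PPP2R3B was called against uninduced cells under every alternative, and the count of the 9 other B subunit genes called on induction was 0 under every alternative. Between uninduced lines 5 to 7 of the 9 were called. Small values near 0 changed sign. PPP2R2A in SKMEL2 at 18 hours was 0.00196 where every library had to hold at least 10 counts, and 0.00132 with all 18 libraries in 1 fit. PPP2R3B between uninduced lines was 0.0198 with at least 10 counts. PPP2R3B in SKMEL30 at 18 against 6 hours passed the threshold in DESeq2 (0.187) and with no filter (0.191), and its line difference in response at 18 hours passed with no filter (-0.357). The causes were not tested.

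The transcript length moved the values per kilobase by its construction. With the union of exons, the coding length and the median coding transcript in that order, the share of PPP2R3B in SKMEL2 was 2.88%, 3.28% and 3.14% uninduced, 38.0%, 41.2% and 39.9% at 6 hours and 40.7%, 43.9% and 42.7% at 18 hours. In SKMEL30 it was 2.25%, 2.88% and 3.05%, then 37.3%, 43.2% and 44.5%, then 40.6%, 46.5% and 47.7%. Its ratio to the catalytic genes in SKMEL2 was 0.0370, 0.0301 and 0.0482, then 0.767, 0.625 and 0.996, then 0.850, 0.693 and 1.10. In SKMEL30 it was 0.0326, 0.0273 and 0.0400, then 0.844, 0.708 and 1.04, then 0.963, 0.808 and 1.18. The share of PPP2R5C among the 9 others in uninduced SKMEL2 was 12.8%, 23.1% and 43.9%, and that of PPP2R5D in uninduced SKMEL30 was 30.7%, 15.8% and 10.1%. The ratio of PPP2R3B to the scaffold genes in SKMEL2 was 0.126, 0.129 and 0.172, then 2.44, 2.47 and 3.33, then 2.77, 2.82 and 3.78. In SKMEL30 it was 0.104, 0.1003 and 0.138, then 2.72, 2.64 and 3.62, then 3.24, 3.12 and 4.30. The ratio of the 9 others to the catalytic genes in SKMEL2 was 1.24, 0.885 and 1.48, then 1.24, 0.882 and 1.49, then 1.24, 0.885 and 1.48. In SKMEL30 it was 1.42, 0.922 and 1.27, then 1.42, 0.931 and 1.29, then 1.41, 0.928 and 1.30. The uninduced B56 share was 56.6%, 57.0% and 58.5% in SKMEL2 and 65.7%, 59.9% and 61.9% in SKMEL30.

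With 1 library left out, values near 0 changed sign, over ranges that follow. In SKMEL2 at 6 hours these were -0.115 to 0.0369 (PPP2R3A), -0.0142 to 0.0531 (PPP2R2A), -0.00121 to 0.0637 (PPP2R5C) and -0.0767 to 0.0170 (PPP2R5E). In SKMEL2 at 18 hours they were -0.0303 to 0.0265 (PPP2R2A), -0.0266 to 0.00599 (PPP2R5C), -0.0182 to 0.0274 (PPP2R5E), -0.0382 to 0.0343 (PPP2R3C), -0.0530 to 0.0208 (PPP2R5A) and -0.0709 to 0.0121 (PPP2R5D). In SKMEL30 at 6 hours they were -0.00795 to 0.0396 (PPP2R5C), -0.000966 to 0.0502 (PPP2R5E), -0.0288 to 0.0174 (PPP2R5A), -0.111 to 0.0270 (PPP2R5D) and -0.0435 to 0.0487 (PPP2R5B). In SKMEL30 at 18 hours they were -0.0482 to 0.000579 (PPP2R5E), -0.0394 to 0.0530 (PPP2R5B) and -0.0976 to 0.0102 (PPP2R2D). Between uninduced lines they were -0.0165 to 0.0486 (PPP2R2A), -0.00813 to 0.0424 (PPP2R5E) and -0.165 to 0.0902 (PPP2R3B).

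Counts of all genes called moved by over 1.5 times. In the order SKMEL2 at 6 hours, 18 hours and 18 against 6 hours, the same in SKMEL30, and the line difference in response at 6 and 18 hours, they were 2, 2, 0, 31, 44, 3, 0 and 1, and 158, 168, 135, 321, 359, 197, 237 and 216 with no filter. DESeq2 gave 8, 11 and 5 in SKMEL2, 71 in SKMEL30 at 18 hours, 12 at 18 against 6 hours and 3 for the line difference at 18 hours. All 18 libraries in 1 fit gave 6 and 7 in SKMEL2, and 5, 9 and 0 in SKMEL30. Only the groups compared gave 9 in SKMEL2 at 18 hours and 0 in SKMEL30 at 18 against 6 hours, where at least 10 counts gave 5. Leaving out a library gave 2 to 5, 2 to 2, 0 to 1, 16 to 33, 25 to 30, 0 to 5, 0 to 1 and 1 to 2.

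The main fits did not pair libraries by replicate number. Whether same-numbered libraries belong together is not stated, and the values here do not settle it. Correlations of same-numbered libraries ran from -0.128 to 0.173 in SKMEL2, with 3 of 9 above 0.1, and from -0.0217 to 0.119 in SKMEL30, with 1 of 9. With the replicate block PPP2R3B was 4.36 and 4.52 in SKMEL2 and 4.69 and 4.88 in SKMEL30, 0 of the 9 others were called, and the count of all genes was 7 in SKMEL2 at 18 hours and 16 in SKMEL30 at 18 against 6 hours. With totals of 13402645 counts or more, depth limits PPP2R5B, with a lowest count of 61, more than the other members.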
